A study of Mus musculus with 6 samples.

Results

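The genes described here encode the enzymes that write and erase lysine methylation and acetylation on histones. They are the rows of the expression table whose symbol begins with Kdm, Kmt2, Kmt5, Hdac, Kat or Setd and a family number, or is one of Sirt1 to Sirt7 or Nsd1 to Nsd3, with Kdm2b and Kdm6b left out. The rule found 56 of the 24421 genes in the table. Expression was measured by SMART-seq, which copies polyadenylated RNA into cDNA from an oligo-dT primer and amplifies it by PCR, in regulatory T cells (Treg) from spleen and lymph nodes of wild-type mice. The 3 groups had 2 libraries each, which were stimulated Treg given iBP, stimulated Treg without it, and unstimulated Treg. The study's design names iBP as inhibitors of H2AK119ub1, the ubiquitin mark that Polycomb repressive complex 1 puts on histone H2A, and it speaks of activation in vitro. The labels give neither the kind of stimulus, its length and the dose, nor the strain, age and sex of the mice. Nor do they say that replicate libraries are from different mice; the p-values therefore reflect the spread between these libraries, which may be technical. Treg that lack Kdm2b are also named in the design and were not analysed here.

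Values are FPKM, fragment numbers divided by transcript length and by the size of the library, as the authors deposited them, so that levels can be set side by side between genes. Summed FPKM per library was between 366040 and 381300 and between 12596 and 13592 genes were above 0, while read depth is unknown. Both unstimulated libraries stood apart, on different principal components. On the leading one, with 33.5% of the variance, unstimulated replicate 1 scored −37.9. The 4 stimulated libraries scored 10.5 to 13.3 there and unstimulated replicate 2 scored −9.32. On the next one unstimulated replicate 2 scored −27.0 and the others lay between −4.67 and 16.2. Foxp3, the factor that defines Treg, had 122 and 124 FPKM with iBP, 121 and 101 FPKM in stimulated libraries and 35.5 and 47.1 FPKM in unstimulated libraries. Markers of B cells were also present, and 10 of 10 were above 1 FPKM in at least 1 library. They took 0.219% to 0.231% of summed FPKM with iBP, 0.241% to 0.253% in stimulated and 0.230% to 0.246% in unstimulated libraries. Cd79b had 222 and 244.5 FPKM with iBP against 336 and 340 FPKM in stimulated libraries. Ms4a1 was slightly lower with iBP (67.3 and 66.3 against 69.0 and 68.8 FPKM) and Pax5 higher (3.38 and 3.20 against 2.73 and 1.57 FPKM). The other B cell markers overlapped between these groups. The 8 T cell and Treg markers took 0.281% and 0.282% with iBP, 0.263% and 0.267% in stimulated and 0.206% and 0.212% in unstimulated libraries. In unstimulated libraries the B cell share was thus the larger one, over lists of 10 and 8 genes. The T cell and Treg share differed mainly through 3 markers. On the log2(FPKM + 1) scale used below, stimulated minus unstimulated differences were 1.41 for Foxp3, 0.92 for Il2ra and 0.42 for Ctla4. They were 0.13 for Cd3e, 0.026 for Cd3d, −0.076 for Cd3g, −0.19 for Cd4 and −0.19 for Ikzf2. The shares therefore do not give cell proportions. Mean FPKM over the 6 libraries ran from 2.63 (Pax5) to 298 (Cd79b) for B cell markers. For T cell and Treg markers it ran from 45.6 (Ikzf2) to 255 (Ctla4). Acinar pancreas markers took 0.0688% in stimulated replicate 2 and at most 0.0256% elsewhere, and erythroid and platelet markers 0.0851% in iBP replicate 2 and at least 0.175% elsewhere. Of 10 myeloid markers 2 reached 1 FPKM, Lyz2 with 65.5 to 99.5 FPKM and Cd68 with 3.53 to 8.28 FPKM. Fcgr1 was listed at 0 in all libraries. The part of other cells in the values below was not tested, and in these bulk samples fewer cells of a type and less RNA per cell cannot be told apart.

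Histone lysine methylation is written by SET-domain enzymes with S-adenosylmethionine as methyl donor and is removed by the amine oxidases Kdm1a and Kdm1b or by JmjC oxygenases that use 2-oxoglutarate. Acetyl groups are added by acetyltransferases with acetyl-CoA and removed by zinc-dependent deacetylases (HDACs) or by NAD-dependent sirtuins. In Treg the acetylation balance also acts on Foxp3 itself, which Kat5 acetylates and which Sirt1 and several HDACs deacetylate.

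Like those of most tested genes, the promoters of these genes are mostly rich in CpG, the dinucleotide that, unmethylated, the CXXC domains of Kdm2a, Kmt2a and Kmt2b read. RefSeq (GRCm38.p6) gave a promoter for 44 of the 56 genes, and CpGs were counted in the 250 bases before the first listed start, where CG reads the same on both strands. They held 0 to 56 CpGs with a median of 15.5, against a median of 16 for the tested genes with a promoter. The first listed start need not be the outermost one. The window of Setd5, with 0 CpGs, begins at position 113104685, inside a gene annotated from 113077365 to 113153435. At least 10 CpGs were found in 37 of 44 windows (84.1%), against 75.4% of the 7886 tested genes with a promoter and 50.7% of the 17224 genes in the table with one. The 250 bases before the start of 4 genes are shown to let their CpG content be compared with their levels. Kdm6a, at chrX:18162325-18162574 on the plus strand, was the gene of highest level among those whose window holds no annotated exon, Kmt2c (chr5:25498784-25499033 on the minus strand) had the most CpGs among them, Hdac6 (chrX:7947890-7948139 on the minus strand) had the largest positive difference with iBP, and Kdm5d (chrY:897538-897787 on the plus strand) was listed at 0 in every library. CpGs are in capitals and each sequence reads 5′ to 3′ on the strand of its gene.
Kdm6a: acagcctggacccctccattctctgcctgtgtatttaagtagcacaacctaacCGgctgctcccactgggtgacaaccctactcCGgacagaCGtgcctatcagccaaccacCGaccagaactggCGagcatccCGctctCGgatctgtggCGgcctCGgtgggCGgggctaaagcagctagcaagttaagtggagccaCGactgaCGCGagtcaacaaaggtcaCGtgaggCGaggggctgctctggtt
Kmt2c: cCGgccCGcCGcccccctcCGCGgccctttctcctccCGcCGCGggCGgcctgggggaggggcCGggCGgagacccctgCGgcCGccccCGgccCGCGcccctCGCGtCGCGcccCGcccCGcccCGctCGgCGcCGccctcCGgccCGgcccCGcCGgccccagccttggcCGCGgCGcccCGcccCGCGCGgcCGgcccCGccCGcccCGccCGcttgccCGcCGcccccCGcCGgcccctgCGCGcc
Hdac6: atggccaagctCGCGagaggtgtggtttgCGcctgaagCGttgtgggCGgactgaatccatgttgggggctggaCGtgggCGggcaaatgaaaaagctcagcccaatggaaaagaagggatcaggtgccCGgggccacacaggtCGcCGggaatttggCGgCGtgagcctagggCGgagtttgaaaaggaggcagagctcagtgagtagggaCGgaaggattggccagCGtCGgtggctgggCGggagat
Kdm5d: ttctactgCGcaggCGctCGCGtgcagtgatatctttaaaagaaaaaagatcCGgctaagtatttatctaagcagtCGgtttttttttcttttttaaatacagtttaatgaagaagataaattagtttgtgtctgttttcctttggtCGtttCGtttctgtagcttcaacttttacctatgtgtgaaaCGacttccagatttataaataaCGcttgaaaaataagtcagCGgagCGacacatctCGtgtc
These windows hold 15 CpGs for Kdm6a, 48 for Kmt2c, 17 for Hdac6 and 13 for Kdm5d, whose mean levels over the 6 libraries were 18.5, 8.54, 2.82 and 0 FPKM. Kdm5d is Y-linked and the sex of the mice is not given, so its level cannot be read against its CpG number. Across the 41 tested genes with a promoter, CpG number and mean FPKM had a Spearman correlation of 0.10, a description over genes that share libraries and base composition.

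Most of the enzymes were present at low to moderate levels in Treg, and a few dominated. Mean FPKM over the 6 libraries was at least 10 for 18 genes, between 1 and 10 for 35 and under 1 for 3. The median gene had 6.23 FPKM, against 8.42 FPKM for the median of all tested genes. The 5 highest, Sirt7, Hdac1, Kmt2e, Sirt2 and Kdm5a, held 46.7% of the summed mean FPKM of the 56 genes. Together the 56 genes took 0.196% and 0.196% of summed FPKM with iBP, 0.190% and 0.208% in stimulated and 0.194% and 0.214% in unstimulated libraries, with overlap between the groups.

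**Figure D1:**
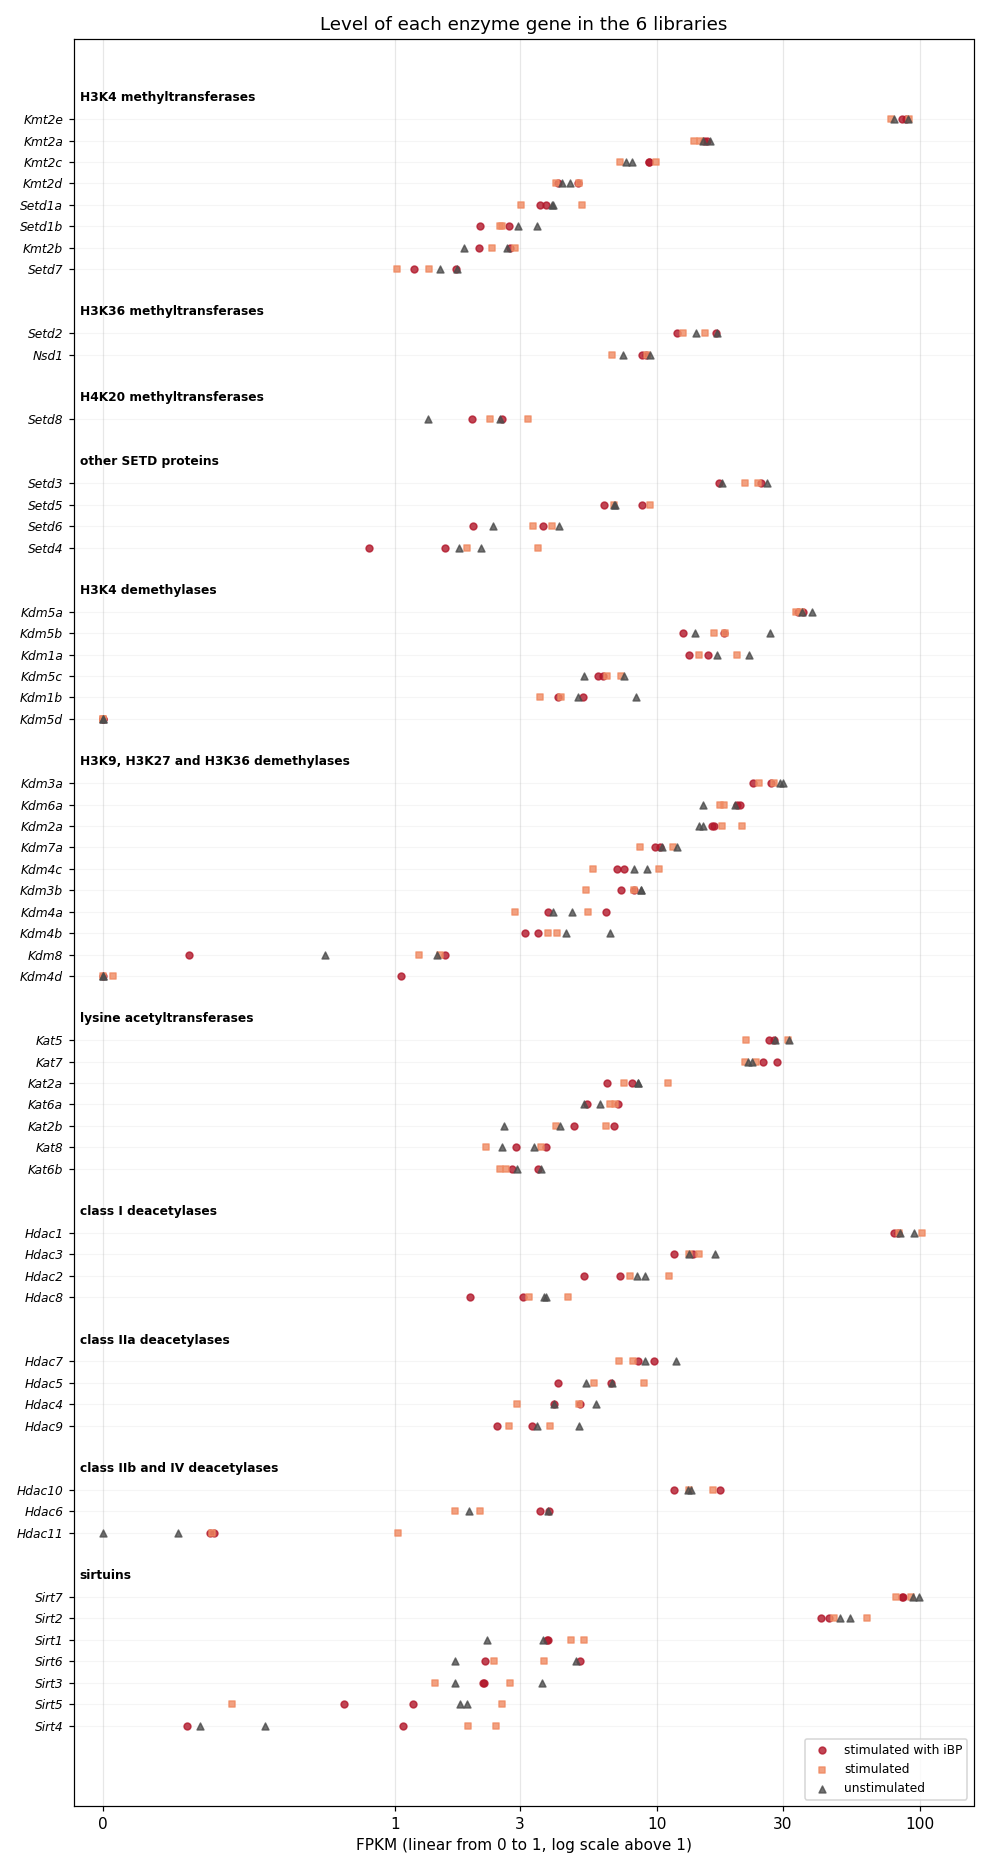
FPKM of the 56 enzyme genes in each library, grouped by role and ordered by mean level within a role. Circles are stimulated libraries with iBP, squares stimulated and triangles unstimulated libraries; the axis is linear from 0 to 1 and logarithmic above. Sirt7, Hdac1 and Kmt2e lie between 77.4 and 102 FPKM in all 6 libraries, and Kdm5d is at 0.

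Among the H3K4 methyltransferases, which mark promoters and enhancers, Kmt2e stood above the rest. Kmt2e, a SET-domain family member better known as a reader of methylated H3K4 than as an enzyme, had 85.3 and 88.1 FPKM with iBP, 77.4 and 90.6 FPKM in stimulated libraries and 80.0 and 90.4 FPKM in unstimulated libraries. Its level was 5.38 to 6.24 times that of Kmt2a in every library. Kmt2a, the MLL1 enzyme of Hox gene maintenance, had 15.4 and 15.1 FPKM with iBP, 13.8 and 14.5 FPKM in stimulated libraries and 14.9 and 15.9 FPKM in unstimulated libraries. Both genes were steady, and for Kmt2a the highest library was only 1.15 times the lowest, the smallest such ratio among the tested enzymes. The enhancer enzymes Kmt2c and Kmt2d spanned 7.21 to 9.88 FPKM and 4.12 to 5.03 FPKM, and Kmt2c was the higher one in 6 of 6 libraries by 1.63 to 2.22 times. The promoter enzymes Setd1a and Setd1b spanned 3.03 to 5.18 FPKM and 2.11 to 3.48 FPKM, Kmt2b 1.83 to 2.86 FPKM, and Setd7, a monomethyltransferase, 1.02 to 1.72 FPKM. The 8 genes of this role summed to 125 and 127 FPKM with iBP, 112 and 131 FPKM in stimulated and 119 and 129 FPKM in unstimulated libraries.

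Setd2, which trimethylates H3K36 along transcribed genes, had 11.9 and 16.8 FPKM with iBP, 12.5 and 15.2 FPKM in stimulated libraries and 14.04 and 16.9 FPKM in unstimulated libraries. Nsd1, which makes H3K36 dimethylation, had 9.05 and 8.71 FPKM with iBP, 6.69 and 9.16 FPKM in stimulated libraries and 9.37 and 7.37 FPKM in unstimulated libraries. In both genes the groups overlapped, and Setd2 was the higher of the pair in 6 of 6 libraries. The H4K20 monomethyltransferase Setd8, now named Kmt5a, was low, with 2.56 and 1.96 FPKM with iBP, 2.299 and 3.21 FPKM in stimulated libraries and 1.34 and 2.51 FPKM in unstimulated libraries. Its lowest library was unstimulated replicate 1. Other SETD proteins act mainly outside chromatin or have no settled histone substrate. Setd3, an actin histidine methyltransferase, had 17.1 and 24.7 FPKM with iBP, 24.2 and 21.5 FPKM in stimulated libraries and 17.7 and 26.2 FPKM in unstimulated libraries. Setd5 had 8.76 and 6.28 FPKM with iBP, 6.85 and 9.38 FPKM in stimulated libraries and 6.92 and 6.83 FPKM in unstimulated libraries. For Setd3 and Setd5 all 3 groups overlapped. Setd4 had 0.913 and 1.55 FPKM with iBP, 1.88 and 3.50 FPKM in stimulated libraries and 1.75 and 2.14 FPKM in unstimulated libraries, and both iBP values lay below those of the other 4 libraries. Setd6, which methylates the NF-kappaB subunit RelA in human cells, spanned 1.98 to 4.22 FPKM.

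The H3K4 demethylases were led by Kdm5a, a JmjC enzyme of the retinoblastoma-binding family, with 35.8 and 34.4 FPKM with iBP, 35.3 and 33.8 FPKM in stimulated libraries and 35.7 and 38.9 FPKM in unstimulated libraries. The groups lay within 33.8 to 38.9 FPKM. Kdm5b, its paralog, had 12.5 and 17.9 FPKM with iBP, 16.4 and 18.1 FPKM in stimulated libraries and 13.9 and 26.96 FPKM in unstimulated libraries. Unstimulated replicate 2 was the highest Kdm5b library and stood apart from its own replicate by more than the groups differed. Kdm1a, the amine oxidase LSD1, spanned 13.2 to 22.4 FPKM, and its paralog Kdm1b, LSD2, had 5.21 and 4.18 FPKM with iBP, 4.29 and 3.56 FPKM in stimulated libraries and 8.30 and 4.97 FPKM in unstimulated libraries. Kdm1b was highest in unstimulated replicate 1, and without overlap the unstimulated libraries were above the stimulated ones. The X-linked Kdm5c spanned 5.26 to 7.46 FPKM, while its Y-linked paralog Kdm5d was listed at 0 in all 6 libraries. Uty, the Y-linked paralog of Kdm6a, was also listed at 0 in all 6.

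Of the demethylases of H3K9, H3K27 and H3K36, Kdm3a, which acts on H3K9 and is known as a hypoxia-induced gene, was the highest. Kdm3a had 27.1 and 23.0 FPKM with iBP, 27.7 and 24.4 FPKM in stimulated libraries and 30.2 and 29.3 FPKM in unstimulated libraries. Kdm6a, the X-linked H3K27 demethylase UTX, had 20.2 and 20.7 FPKM with iBP, 17.3 and 17.9 FPKM in stimulated libraries and 15.0 and 19.7 FPKM in unstimulated libraries, with both iBP values above those of the other 4 libraries. Kdm2a, the H3K36 demethylase with a CXXC domain and closest paralog of Kdm2b, had 16.2 and 16.4 FPKM with iBP, 17.7 and 21.0 FPKM in stimulated libraries and 14.4 and 15.0 FPKM in unstimulated libraries. Here the stimulated libraries were highest and the unstimulated ones lowest, without overlap. Kdm3b had 7.27 and 8.16 FPKM with iBP, 5.35 and 8.12 FPKM in stimulated libraries and 8.63 and 8.70 FPKM in unstimulated libraries, and stimulated replicate 1 was its lowest library. Among the Kdm4 enzymes of H3K9 and H3K36, Kdm4b had 3.50 and 3.13 FPKM with iBP, 3.83 and 4.15 FPKM in stimulated libraries and 4.49 and 6.60 FPKM in unstimulated libraries. Its values were lowest with iBP and highest in unstimulated libraries, without overlap between groups. Kdm4a had 3.82 and 6.40 FPKM with iBP, 2.87 and 5.44 FPKM in stimulated libraries and 4.02 and 4.72 FPKM in unstimulated libraries, with replicate 2 above replicate 1 in each group. Kdm4c spanned 5.68 to 10.1 FPKM, Kdm7a 8.59 to 11.8 FPKM and Kdm8 0.295 to 1.55 FPKM. Kdm4d was listed at 0 in 4 libraries, at 0.0350 FPKM in stimulated replicate 2 and at 1.06 FPKM in iBP replicate 2.

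Kat5 and Kat7 were the leading acetyltransferases. Kat5, the TIP60 enzyme, had 26.7 and 27.8 FPKM with iBP, 21.7 and 31.5 FPKM in stimulated libraries and 28.1 and 31.7 FPKM in unstimulated libraries, and both iBP values lay between the 2 stimulated ones and below the unstimulated ones. Kat7, the HBO1 enzyme that acetylates H3 and H4, had 28.6 and 25.3 FPKM with iBP, 21.5 and 23.7 FPKM in stimulated libraries and 22.2 and 22.9 FPKM in unstimulated libraries. The 2 iBP libraries were above the other 4. Kat2a and Kat2b, the GCN5 and PCAF enzymes of H3K9 acetylation, stood in a varying ratio: Kat2a was 1.66 and 0.942 times Kat2b with iBP, 2.67 and 1.17 times in stimulated and 3.23 and 1.97 times in unstimulated libraries. Kat2b had 4.80 and 6.85 FPKM with iBP, 4.12 and 6.37 FPKM in stimulated libraries and 2.62 and 4.27 FPKM in unstimulated libraries. The iBP values of Kat2b lay above the unstimulated ones and overlapped with the stimulated ones. Kat2a spanned 6.45 to 10.99 FPKM, Kat6a 5.25 to 7.05 FPKM, Kat6b 2.505 to 3.59 FPKM and Kat8, the MOF enzyme of H4K16, 2.22 to 3.78 FPKM.

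Hdac1 carried most of the class I deacetylase signal, with 77.5% and 80.9% of its sum with iBP, 75.6% and 78.8% in stimulated and 76.9% and 76.5% in unstimulated libraries. Hdac1 had 82.4 and 79.4 FPKM with iBP, 83.3 and 102 FPKM in stimulated libraries and 84.3 and 94.7 FPKM in unstimulated libraries, and both iBP values were below the other 4. Its paralog Hdac2 had 7.20 and 5.27 FPKM with iBP, 7.86 and 11.1 FPKM in stimulated libraries and 8.36 and 8.94 FPKM in unstimulated libraries, and Hdac1 was 9.21 to 15.1 times as high. Both iBP values of Hdac2 were below the other 4 libraries. Hdac3, the catalytic subunit of the NCoR complexes, had 13.6 and 11.6 FPKM with iBP, 14.4 and 13.1 FPKM in stimulated libraries and 13.2 and 16.5 FPKM in unstimulated libraries, and all groups overlapped. The X-linked Hdac8 had 3.09 and 1.94 FPKM with iBP, 4.58 and 3.25 FPKM in stimulated libraries and 3.78 and 3.71 FPKM in unstimulated libraries, again with both iBP values lowest. Of the 53 tested enzymes, 18.9% were lower with iBP than in stimulated libraries without overlap, against 21% of all tested genes. Against unstimulated libraries the shares were 34% and 23.9%. How many of all genes had both iBP values lowest was not counted.

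Class IIa deacetylases, which move between nucleus and cytoplasm and bind MEF2 factors, were all below 12 FPKM. Hdac7, known from thymocyte selection, had 9.71 and 8.44 FPKM with iBP, 7.15 and 8.10 FPKM in stimulated libraries and 11.8 and 8.96 FPKM in unstimulated libraries, and the stimulated values were the lowest 2 of the 6. Hdac5, of the same class, had 4.17 and 6.66 FPKM with iBP, 8.88 and 5.76 FPKM in stimulated libraries and 5.34 and 6.73 FPKM in unstimulated libraries, with overlap between the groups. Hdac9, whose loss in mice is known to raise Treg numbers and suppression, had 3.33 and 2.46 FPKM with iBP, 2.73 and 3.89 FPKM in stimulated libraries and 5.05 and 3.47 FPKM in unstimulated libraries, with both iBP values below the unstimulated ones. Hdac4 spanned 2.93 to 5.84 FPKM. In class IIb, the polyamine deacetylase Hdac10 had 17.4 and 11.6 FPKM with iBP, 13.2 and 16.3 FPKM in stimulated libraries and 13.1 and 13.4 FPKM in unstimulated libraries, with overlap between groups. Hdac6, a cytoplasmic deacetylase of tubulin, had 3.56 and 3.85 FPKM with iBP, 2.11 and 1.70 FPKM in stimulated libraries and 3.82 and 1.91 FPKM in unstimulated libraries. The 2 iBP values of Hdac6 were above the stimulated ones, and the 2 unstimulated libraries spanned nearly the same range as those 4. Hdac11, the class IV enzyme, reached 1.03 FPKM in stimulated replicate 2 and was at 0.379 FPKM or less in the other 5.

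Sirt7 and Sirt2 made up most of the sirtuin signal. Sirt7, a nucleolar deacetylase of H3K18, was the highest of the 56 genes on average, with 85.7 and 86.5 FPKM with iBP, 92.2 and 81.3 FPKM in stimulated libraries and 94.0 and 99.0 FPKM in unstimulated libraries. Both unstimulated values were the highest. Sirt2, a mainly cytoplasmic enzyme, had 42.0 and 44.9 FPKM with iBP, 46.9 and 63.0 FPKM in stimulated libraries and 54.2 and 49.6 FPKM in unstimulated libraries, and both iBP values were lowest. Sirt1, the nuclear enzyme that deacetylates Foxp3, had 3.84 and 3.80 FPKM with iBP, 4.70 and 5.28 FPKM in stimulated libraries and 2.24 and 3.68 FPKM in unstimulated libraries. Stimulated libraries were highest and unstimulated ones lowest, without overlap. The mitochondrial Sirt4 had 1.07 and 0.288 FPKM with iBP, 2.44 and 1.90 FPKM in stimulated libraries and 0.555 and 0.334 FPKM in unstimulated libraries. The 2 stimulated libraries without iBP were above the other 4. The gene lies near the filter of 1 FPKM, and its highest library was 8.46 times its lowest. Mitochondrial Sirt5 had 1.17 and 0.827 FPKM with iBP, 0.442 and 2.55 FPKM in stimulated libraries and 1.78 and 1.88 FPKM in unstimulated libraries, and its 2 stimulated libraries were the lowest and the highest of the 6. Sirt3 and Sirt6 spanned 1.42 to 3.62 FPKM and 1.70 to 5.09 FPKM.

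**Figure D2:**
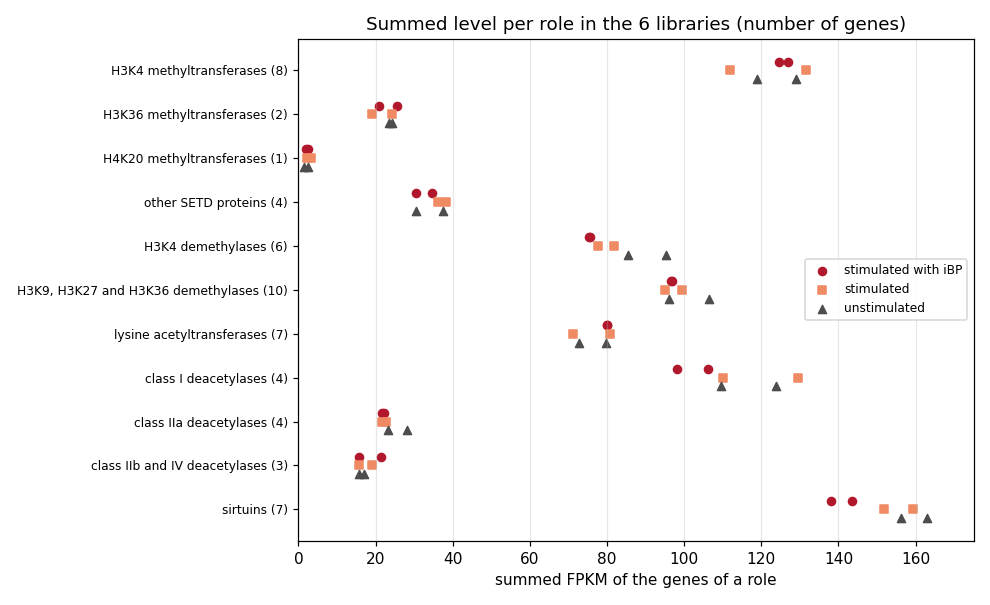
Summed FPKM of the genes of each role in each library, with the number of genes in parentheses. Circles are stimulated libraries with iBP, squares stimulated and triangles unstimulated libraries. Sirtuins summed to 138 and 144 FPKM with iBP, 152 and 159 FPKM in stimulated and 156 and 163 FPKM in unstimulated libraries, and H3K4 demethylases to 75.4 and 75.6 FPKM with iBP, 77.7 and 81.9 FPKM in stimulated and 85.5 and 95.2 FPKM in unstimulated libraries.

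Exons of 20 of the 56 genes overlap those of another annotated gene, and reads of such pairs may be shared, as library strand is not given in the sources used here. In GENCODE M21 (GRCm38, the assembly mm10 that the submitters' processing notes name), the largest overlap was that of Setd1a, with 51.8% of its exon bases shared with Gm49388 on its own strand. Opposite-strand noncoding or unclassified genes cover 24.6% of the exon bases of Kdm3b, 22.4% of those of Hdac4 and 15.4% of those of Hdac11. These 4 neighbours have no values in the table under these symbols. Kat5 at chr19:5603014-5610237, minus strand shares 12.1% of its exon bases with Rnaseh2c on the other strand. Kdm1b at chr13:47043499-47085279, plus strand shares 9.2% with Dek, and Kmt2e at chr5:23434441-23504235, plus strand shares 9.3% with Srpk2. Sirt7 at chr11:120618372-120625240, minus strand shares 2.4% with Mafg on its own strand. Sirt4 at chr5:115478010-115484725, minus strand and Kdm2a at chr19:4314419-4398285, minus strand share none with an annotated gene.

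Of the 56 genes, 53 had at least 1 FPKM in at least 2 libraries and were tested among 10436 genes with limma on log2(FPKM + 1). Kdm5d, Kdm4d and Hdac11 were not. A gene passed at a Benjamini-Hochberg adjusted p under 0.05 over all genes tested. Differences below are on the log2(FPKM + 1) scale, which understates the change of low genes. Where ± is shown, it gives the standard error (SE).

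The comparison of stimulated with unstimulated Treg asks how expression differs after activation. In it 0 of 53 enzyme genes passed, against 1.29% of all tested genes (135 of 10436). At an unadjusted p under 0.05, 1 of 53 was past the threshold, against 10.8% of all genes. The one was Sirt4, at 1.13 ± 0.38 (95% interval 0.29 to 1.97, adjusted p = 0.261). Libraries did not overlap for 4 genes higher in stimulated cells (Sirt4, Sirt1, Kdm2a and Kat6a) and for 11 lower, 7.55% and 20.8% of the 53, where 18.7% and 19.1% of all genes did so. The median difference of the 53 genes was −0.022 and that of all tested genes −0.0024, with median absolute differences of 0.16 and 0.21.

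Beside Sirt4, the largest positive differences were those of Sirt1, Kat2b, Setd8 and Kdm2a, none of which passed. Sirt1 differed by 0.62 ± 0.30 (adjusted p = 0.489), Kat2b by 0.49, Setd8 by 0.38 and Kdm2a by 0.37 ± 0.18 (adjusted p = 0.509). The largest negative ones belonged to 3 demethylases and 2 deacetylases. Kdm1b differed by −0.60 ± 0.30 (95% interval −1.26 to 0.054, adjusted p = 0.509), Hdac7 by −0.39, Kdm4b by −0.37, Hdac6 by −0.37 and Kdm3b by −0.34. Leaving out 1 library moved 8 of these 10 differences by over 1.5 times, all but those of Sirt4 and Kdm2a. Without unstimulated replicate 1, furthest out on the leading component, the difference of Sirt1 was 0.35, that of Kat2b 0.22 and that of Setd8 0.088. In the same fit that of Kdm1b was −0.28, that of Hdac7 −0.21, that of Hdac6 −0.0057 and that of Kdm4b −0.61. Without unstimulated replicate 2 that of Kdm4b was −0.14, without stimulated replicate 1 that of Kdm3b was −0.083, and without stimulated replicate 2 those of Kat2b and Setd8 were 0.23 and 0.20.

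For the most abundant enzymes the intervals were narrow. The 95% interval of stimulated minus unstimulated cells was −0.43 to 0.12 for Sirt7, −0.26 to 0.35 for Hdac1 and −0.32 to 0.27 for Kmt2e. It was −0.29 to 0.42 for Sirt2 and −0.43 to 0.21 for Kdm5a. A 2-fold change, a difference of 1 on this scale, lies outside each of these intervals. Over the 53 genes the median half-width was 0.60, against 0.57 for all tested genes. Changes below that size would thus mostly miss even an unadjusted p under 0.05. The adjusted threshold asks for larger ones, and Sirt4 at 1.13 did not pass it.

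**Figure D3:**
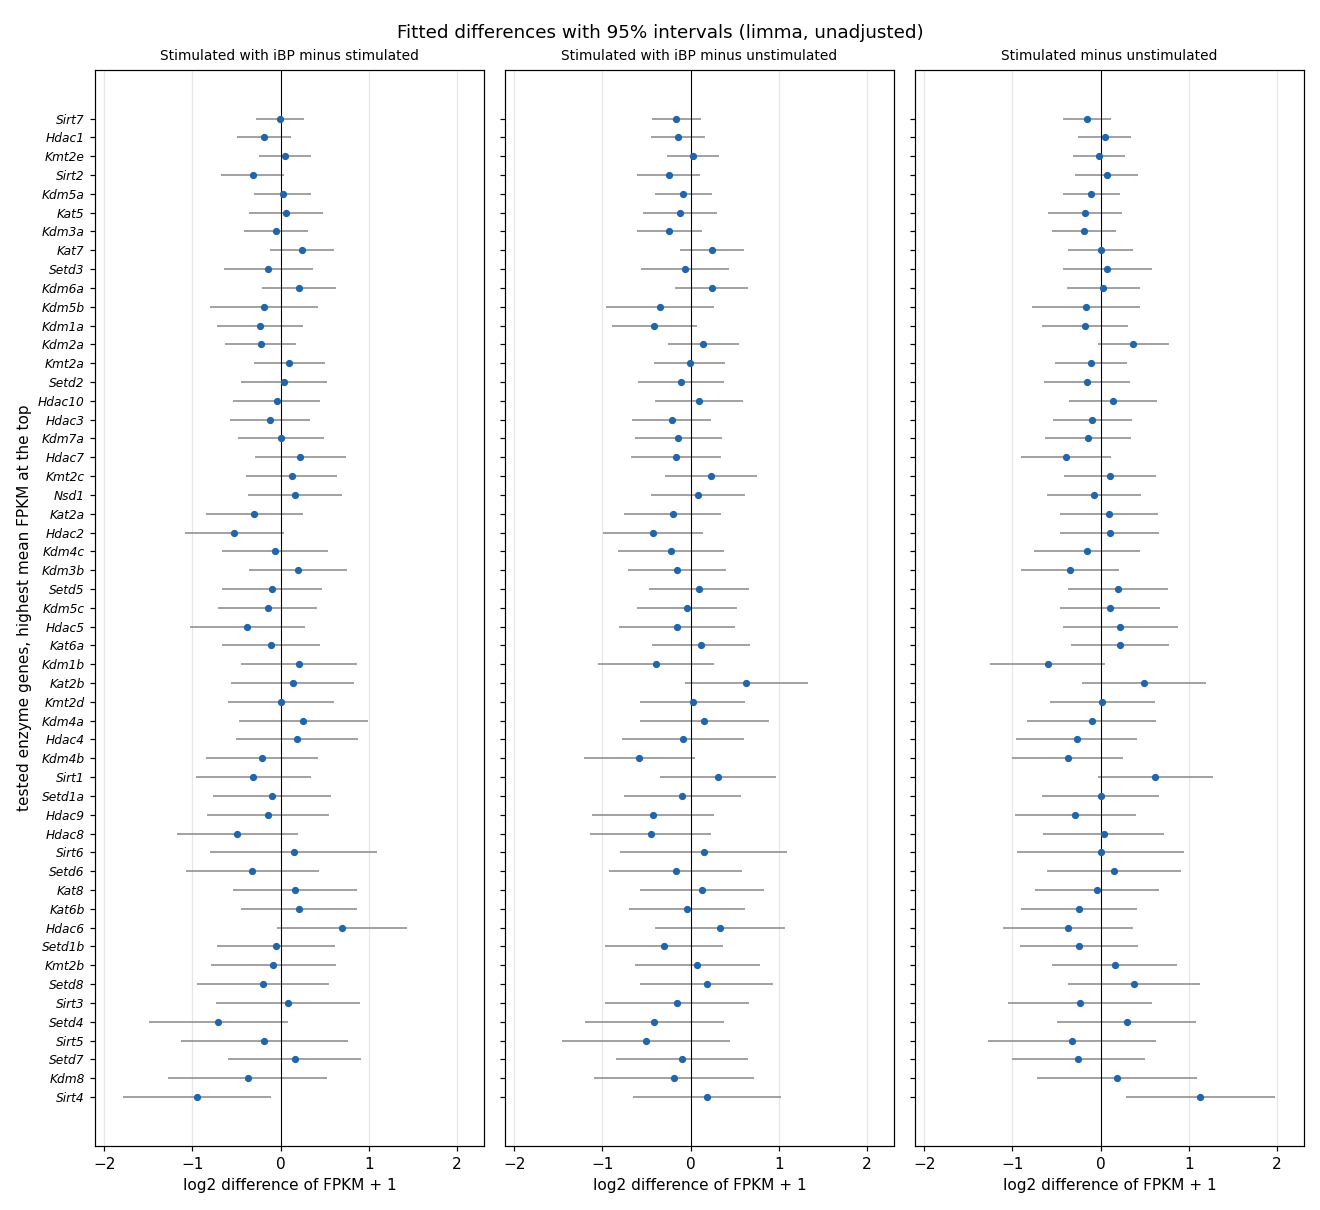
Fitted log2 differences of FPKM + 1 (points) with unadjusted 95% intervals (bars) for the 53 tested genes in the 3 comparisons, from the gene of highest mean FPKM at the top to the lowest at the bottom. Intervals widen as levels fall, and the interval leaves 0 only for Sirt4, in the left and the right panel.

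The comparison of iBP with stimulation alone asks how the stimulated state differs when iBP is present. H2AK119ub1 itself was not measured. Again 0 of 53 enzyme genes passed, where 0.00958% of all tested genes did (1 of 10436), and 1 of 53 had an unadjusted p under 0.05, against 4.77% of all genes. It was again Sirt4, with −0.95 ± 0.38 (95% interval −1.79 to −0.11, adjusted p = 0.998). Both comparisons use the same stimulated libraries, so the opposite signs of the 2 Sirt4 differences are not independent. With iBP, 6 genes were higher without overlap (Hdac6, Kat7, Kdm6a, Hdac7, Kat6b and Kmt2a) and 10 lower, 11.3% and 18.9% of the 53, where 13.6% and 21% of all genes were. The median was −0.057 over the 53 genes and −0.035 over all tested genes.

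The largest positive differences with iBP were 0.70 ± 0.34 for Hdac6 (95% interval −0.04 to 1.44), 0.26 for Kdm4a, 0.24 ± 0.17 for Kat7, 0.22 for Hdac7 and 0.21 for Kdm1b. Of these Kdm4a changed sign when stimulated replicate 1 (−0.11) or iBP replicate 2 (−0.052) was left out. Below Sirt4, the negative end held Setd4 at −0.71 and 3 deacetylases: Hdac2 at −0.53 ± 0.26 (95% interval −1.09 to 0.033), Hdac8 at −0.49 and Hdac5 at −0.38. All had an adjusted p of 0.998. Leaving out 1 library moved 9 of the 10 by over 1.5 times, all but Hdac6; Hdac5 was −0.10 without stimulated replicate 1 and −0.093 without iBP replicate 1, Setd4 −0.38 without stimulated replicate 2, and Sirt4 −0.61 without iBP replicate 2. Intervals for the abundant genes were −0.28 to 0.27 for Sirt7, −0.49 to 0.12 for Hdac1 and −0.24 to 0.34 for Kmt2e. For Sirt2, lower with iBP without overlap, the interval was −0.67 to 0.038.

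Stimulated cells with iBP were also set against unstimulated cells. The unstimulated libraries are those of the first comparison and the iBP libraries those of the second. Here 0 of 53 enzyme genes passed, against 1.75% of all tested genes (183 of 10436), and 0 of 53 had an unadjusted p under 0.05, against 12.2%. Without overlap, 6 were higher and 18 lower, 11.3% and 34% of the 53, where 18.1% and 23.9% of all genes were. The median was −0.097, against −0.033 over all tested genes. The largest positive differences were those of Kat2b (0.63 ± 0.32, 95% interval −0.069 to 1.33, adjusted p = 0.466), Hdac6 (0.33), Sirt1 (0.31), Kat7 (0.24) and Kdm6a (0.24). The largest negative ones were those of Kdm4b (−0.58 ± 0.29, 95% interval −1.21 to 0.05, adjusted p = 0.459), Sirt5 (−0.51), Hdac8 (−0.45), Hdac2 (−0.43) and Hdac9 (−0.43). Leaving out 1 library moved 9 of these 10 by over 1.5 times, all but Sirt5. Hdac6 was −0.035 without unstimulated replicate 2. Without unstimulated replicate 1, Sirt1 was 0.042, Kdm6a 0.05, Kat2b 0.36 and Hdac9 −0.21, and without iBP replicate 2, Hdac8 was −0.22 and Hdac2 −0.23.

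The symbols of the table leave 4 enzymes of these families outside the 56, since Nsd2, Nsd3, Kmt5b and Kmt5c are listed under their earlier names Whsc1, Whsc1l1, Suv420h1 and Suv420h2. Whsc1l1, the H3K36 methyltransferase now named Nsd3, had 146 and 144 FPKM with iBP, 133 and 142 FPKM in stimulated libraries and 53.0 and 67.7 FPKM in unstimulated libraries. Both groups of stimulated libraries were above the unstimulated one without overlap, and its level exceeded that of each of the 56 genes in the 4 stimulated libraries. Whsc1l1 rose by 1.19 ± 0.14 in stimulated against unstimulated cells (95% interval 0.89 to 1.49, adjusted p = 0.00117) and by 1.26 ± 0.14 with iBP against unstimulated cells (adjusted p = 0.000821). With iBP against stimulation alone it differed by 0.076 ± 0.14 (95% interval −0.23 to 0.38). The gene lies at chr8:25601601-25719667 on the plus strand, shares no exon bases with another gene of GENCODE M21, and its paralogs Nsd1 and Whsc1 were far lower. Both calls held when any 1 library was left out. They ended when low genes were not filtered (adjusted p = 0.125 and 0.0866) or when the variance trend was dropped (0.129 and 0.125). Whsc1 had 4.25 and 4.04 FPKM with iBP, 3.69 and 4.93 FPKM in stimulated libraries and 2.34 and 3.40 FPKM in unstimulated libraries, and Suv420h2 spanned 2.001 to 6.47 FPKM. Suv420h1, which makes the higher H4K20 methylation states, had 8.67 and 7.38 FPKM with iBP, 12.2 and 12.6 FPKM in stimulated libraries and 16.004 and 12.4 FPKM in unstimulated libraries. Its iBP values were the lowest, and its difference from unstimulated cells, −0.74 ± 0.22, did not pass (adjusted p = 0.144).

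**Figure D4:**
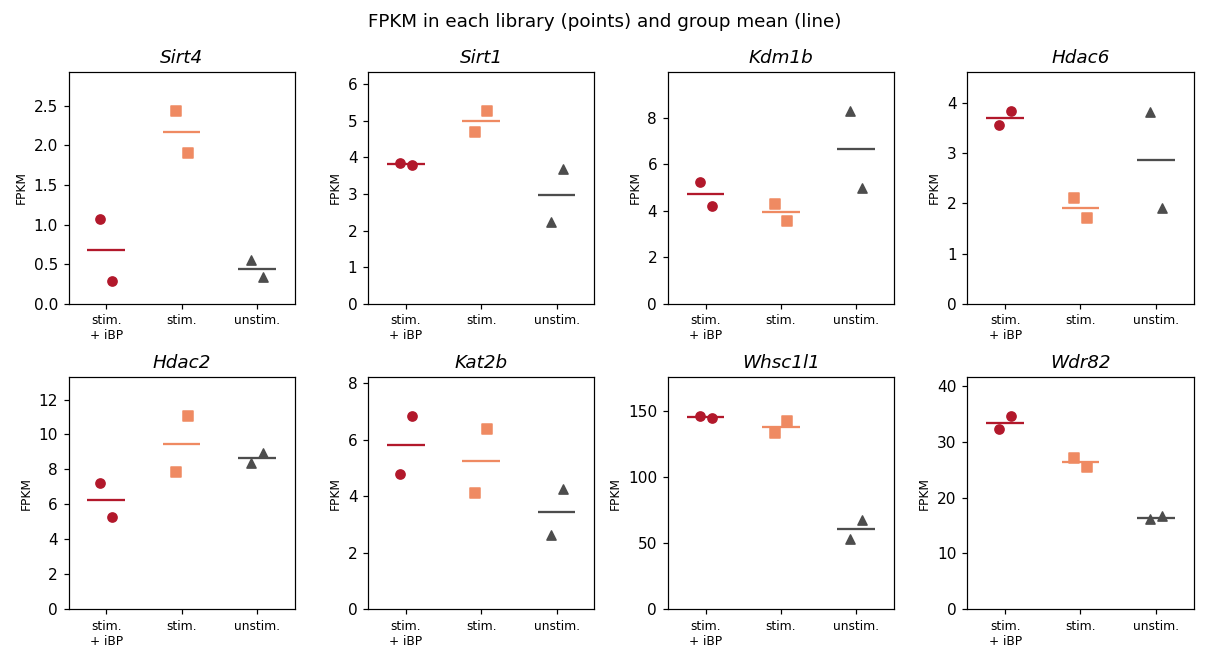
FPKM in each library (points) and the group mean (line) for 6 of the enzyme genes with the largest differences and for Whsc1l1 and Wdr82, with stimulated libraries with iBP at the left, stimulated in the middle and unstimulated at the right. Axes start at 0 and differ between panels. Whsc1l1 and Wdr82 were above the unstimulated libraries in all 4 stimulated ones.

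Partners of these enzymes and related chromatin genes made up 162 further genes of the table, of which 155 were tested. In stimulated against unstimulated cells 1 rose and 0 fell (0.645%, against 1.29% of all tested genes). With iBP against stimulation alone 0 passed, against 0.00958%, and with iBP against unstimulated cells 2 rose and 0 fell (1.29%, against 1.75%). These counts include Whsc1l1. The other gene was Wdr82, the subunit that brings the Setd1a and Setd1b complexes to RNA polymerase, with 32.2 and 34.7 FPKM with iBP, 27.2 and 25.5 FPKM in stimulated libraries and 16.1 and 16.7 FPKM in unstimulated libraries. It rose by 0.99 ± 0.16 with iBP against unstimulated cells (adjusted p = 0.00928), a call that ended without iBP replicate 1 (0.0805) or iBP replicate 2 (0.122), when low genes were kept (0.0804) and when the variance trend was dropped (0.142). In stimulated against unstimulated cells Wdr82 stood at 0.65 ± 0.16 (adjusted p = 0.0861).

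In the other lists 0 genes passed. The coactivator Ncoa3, of the p160 family, came nearest, with 66.8 and 65.6 FPKM with iBP, 66.9 and 67.4 FPKM in stimulated libraries and 42.2 and 45.6 FPKM in unstimulated libraries. Its difference was 0.60 ± 0.13 in stimulated (adjusted p = 0.0511) and 0.58 ± 0.13 in iBP against unstimulated cells (adjusted p = 0.0508). Its paralog Ncoa1 stood at 0.45 after stimulation. Ep300 and Crebbp, the p300 and CBP acetyltransferases, spanned 4.08 to 5.55 FPKM and 17.8 to 26.1 FPKM. Of 12 other lysine methyltransferases tested, the largest differences with stimulation were those of Setmar (0.69 ± 0.46) and of the H3K79 enzyme Dot1l (0.51 ± 0.37). Setmar had 0.646 and 2.15 FPKM in stimulated and 0 and 0.981 FPKM in unstimulated libraries. Dot1l had 6.93 and 9.42 FPKM in stimulated and 2.99 and 9.17 FPKM in unstimulated libraries. In both genes these groups overlapped. With iBP against stimulation the largest differences were those of Setmar (1.06 ± 0.46) and of the H3K9 enzyme Suv39h1 (−0.49 ± 0.24). Among 8 further JmjC proteins, Jarid2, a partner of Polycomb repressive complex 2, stood at 0.37 and the H3K9 demethylase Phf8 at −0.35 after stimulation, and Jmjd6 at −0.43 with iBP against stimulation.

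The core COMPASS subunits Wdr5, Dpy30, Ash2l and Rbbp5 stood at 0.27, 0.098, −0.43 and −0.45 with stimulation. Rbbp5 had 22.5 and 11.5 FPKM in the stimulated libraries. The median of the 12 COMPASS partners was −0.14. Of 35 subunits of deacetylase complexes, Mier2 (0.90 ± 0.65) and Rcor3 (−0.73 ± 0.32) differed most with stimulation. Mier2 had 7.01 and 2.39 FPKM in stimulated and 0.193 and 5.49 FPKM in unstimulated libraries, with overlap between the groups. With iBP against stimulation Rcor1 (0.47 ± 0.28) and Rcor3 (0.45 ± 0.32) differed most. Of 43 partners of acetyltransferases, Tada2a (−1.004) and Phf20 (−0.70) differed most with stimulation and Jade2 (−0.80) and Phf20 (0.49) with iBP against stimulation. Of 13 readers of acetyl-lysine, Baz2b (0.34) and Baz1a (0.32) differed most with stimulation. Of 17 genes of cofactor supply, Naprt (−0.64) of NAD synthesis and Ahcy (0.50), which clears S-adenosylhomocysteine, did. With stimulation the medians of these 8 lists lay between −0.14 and 0.08, where all tested genes had −0.0024, and the 4 enzymes under earlier names had 0.36.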

How the data were processed

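The authors deposited FPKM per gene in 6 libraries, a single table of 24421 genes. Per the submitters' processing notes, HISAT2 2.2.1, StringTie 2.1.1 and mm10 were used. The sources used here do not give annotation, filters, strand or the handling of multi-mapped reads; paralogs and overlapping genes may share reads. Low FPKM values show no common step between libraries, so whole reads were not recovered and depth is unknown.

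FPKM was taken to log2 after adding 1. The 10436 genes with at least 1 FPKM in at least 2 libraries were fitted with limma 3.58.1 (R 4.3.3), with 3 groups and a variance trend (prior df 8.52, residual df 3). Tests are two-sided, and p-values were adjusted by Benjamini-Hochberg over these genes. The test was checked on simulated data. Alternatives were 0.1 as pseudocount, no filter, a minimum FPKM of 5, TPM, median-of-ratios and quantile scaling, no trend, robust moderation, only the 2 groups compared, a replicate block and leaving out each library, where a lone library was given the spread of the other groups.

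Named are the 5 largest differences each way in each comparison, the 2 highest genes of each role, and of related lists the genes that passed or the 2 largest differences, with further genes by their range. The enzymes and lists were chosen with earlier results of these data known. Plots were made with matplotlib 3.10.9.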

Additional observations from a re-analysis of the deposited data

How the results depend on the processing

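Under each of the 16 alternatives 0 enzyme genes passed in any of the 3 comparisons, and the smallest adjusted p of an enzyme gene under any of them was 0.206. The median difference over the enzyme genes ranged from −0.097 to 0.049 for stimulated against unstimulated cells, from −0.10 to −0.0080 for iBP against stimulated and from −0.16 to −0.035 for iBP against unstimulated. Of 465 differences of named enzymes under the alternatives, 462 kept their sign and stayed short of the threshold, and 3 turned round, all when 1 library was left out. With iBP against stimulated, Kdm4a ranged from −0.11 (without stimulated replicate 1, and −0.052 without iBP replicate 2) to 0.63. With iBP against unstimulated, Hdac6 ranged from −0.035 (without unstimulated replicate 2) to 0.69.

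The number of all tested genes that passed, counted anew in each fit, moved more. For stimulated against unstimulated cells it was 135 in the report, and at its highest 183 with a minimum FPKM of 5 and 162 with robust moderation. It was 12 with no filter, 12 with no trend, 79 with only the 2 groups, 81 when stimulated replicate 1 was left out, 54 without stimulated replicate 2, and 84 when unstimulated replicate 1 was left out. For iBP against unstimulated it was 183 in the report, 234 with a minimum FPKM of 5 and 215 with robust moderation. It was 11 with no filter, 9 with no trend, 76 without iBP replicate 1, 53 without iBP replicate 2 and 95 without unstimulated replicate 1. The other alternatives gave 79 to 144 and 109 to 190. For iBP against stimulated the count stayed between 0 and 5. The cause was not tested. Deviations of libraries with the same number correlated at −0.046, −0.018 and −0.012 across genes, so the numbers were not taken as pairs. With the replicate number as a block 0 enzyme genes passed, 79 and 109 of all genes passed in the 2 comparisons with unstimulated cells, and Whsc1l1 kept its calls (adjusted p = 0.00696 and 0.00524). With 2 libraries per group, a median half-width of 0.60 in the unadjusted 95% intervals limits what can be shown for an enzyme gene.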
